A study of Homo sapiens with 3 samples.

Results

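Double-positive and parental BxPC-3 cells were compared gene by gene after every cell had been reduced to the same number of molecules. BxPC-3 is an established human pancreatic ductal adenocarcinoma line. Cells stably expressing EGFP and cells stably expressing mCherry had been mixed in equal number, held in suspension to induce cell-in-cell structures, and sorted by fluorescence. Double-positive cells carried both signals, single-positive cells carried 1 of them, and parental cells formed the reference. Per the labels, expanded cells were trypsinized before the 10x Chromium 5' libraries were made. Whether the parental cells carried a fluorophore or passed through suspension and sorting is not stated in the labels. Nor do the labels state whether the expansion came after sorting, or how long it lasted. Each group had 1 library. The 4349 cells compared, 1940 double-positive and 2409 parental, were the barcodes with at least 6500 unique molecular identifiers (UMIs), at least 500 genes and at most 20% mitochondrially encoded UMIs, of 5640 such cells in the series. The other 1291 were single-positive, and their values are given beside some genes as context.

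In entosis, a form of cell-in-cell formation, an epithelial cell detached from matrix is drawn into a neighbour through cadherin junctions and actomyosin tension driven by RhoA and its kinase ROCK. The inner cell may be degraded by LC3 lipidation and lysosomal fusion, divide inside its host, or be released. Mitochondrial DNA encodes 13 protein subunits of the respiratory chain and the ATP synthase, transcribed from both strands as long precursors, while all other subunits come from nuclear genes. Double fluorescence marks cells that hold both proteins. It does not by itself tell an engulfed cell from a fused cell, from protein taken up, or from 2 cells sorted together.

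With 1 library per group there is no replicate check, so no test was run and no p-value is given. The library and the label cannot be told apart. A gene's share is the percentage of cells with at least 1 UMI of it at 6500 UMIs per cell, its level is the mean number of UMIs in those cells, and its mean over all cells is the product of the share and the level. The log2 ratio of means is therefore the sum of a share part and a level part. Intervals are exact 95% intervals that cover counting error only, and they treat the UMIs or cells of 1 library as independent draws. A gene was counted when its mean, averaged over the 2 libraries, was at least 10 CPM (UMIs scaled to an equal total). It was called higher or lower by size alone. The size was at least 1.5-fold in the mean or the level, or at least 10 percentage points in the share. The level was assessed only for genes with at least 50 expressing cells in each library.

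The cells held a median of 23290 UMIs in the parental library and 29963.5 in the double-positive library before thinning, and 38137 in the single-positive library. After thinning, the median number of genes per cell was 2375 in parental and 2390 in double-positive cells. Of the UMIs of each library, 97.7 to 98.0% lay in these cells. The double-positive and parental libraries shared 6 cell barcodes. Cells of 50000 UMIs or more made up 6.48% of parental and 8.76% of double-positive cells; no doublet caller was run, and the part of droplets with 2 cells was not tested. As all cells are of 1 line, no cell type known to lack a gene was at hand to gauge free RNA. Markers of pancreatic carcinoma epithelium, all 10 detected, summed to 16048 CPM in parental and 14868 in double-positive cells, with KRT17 or KRT18 in over 99.9% of cells. Fibroblast markers summed to 4.28 and 4.20 CPM, with COL1A2, DCN and PDGFRB at 0, and immune markers to 6.51 and 5.0, with PTPRC at 0. Phase calls from S and G2/M genes placed 44.0% of parental and 42.4% of double-positive cells in G1, 14.9% and 15.8% in S, and 41.1% and 41.8% in G2/M.

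At equal depth the 2 libraries were close for most genes. Among 7693 genes counted, a median log2 ratio of 0.01 was found, with the 5th and 95th percentiles at -0.25 and 0.27. In double-positive cells, 30 genes (0.39% of those counted) had a mean at least 1.5-fold above the parental one, and 21 (0.273%) a mean at least 1.5-fold below it. The 30 were the 13 mitochondrially encoded transcripts and 17 nuclear genes, and all 21 lower genes were nuclear. Changes of at least 2-fold were met by 4 mitochondrially encoded transcripts (higher) and by 5 nuclear genes (lower: LY6D, KRT4, PRSS1, LYNX1 and CYP1A1). No nuclear gene was 2-fold higher. A second random draw at the same depth kept all 13 mitochondrially encoded transcripts past 1.5-fold, 8 of the 17 higher nuclear genes and 17 of the 21 lower ones.

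The share of expressing cells was at least 10 points higher for 15 genes (0.195%) and at least 10 points lower for 6 (0.078%). The level in expressing cells was at least 1.5-fold higher for 8 of 7689 genes that could be assessed (0.104%). None of the 7689 had a level at least 1.5-fold lower (0.0%). PRSS1, at a level of 4.02 UMIs in parental and 1.60 in double-positive cells, was not assessed, as only 30 double-positive cells held it. Of the 15 share gains, 11 were mitochondrially encoded and 4 nuclear. Of the 8 level gains, 7 were mitochondrially encoded and the other was PI3, the elastase inhibitor elafin. PI3 was found in fewer double-positive cells, 11.9% against 16.6%, at a higher level, 4.42 against 2.89 UMIs, so that its mean differed by only 0.13 on the log2 scale. Before thinning, 346 genes had a share at least 10 points higher in double-positive cells and 2 a share at least 10 points lower, with a median difference of 5.12 points. After thinning the median difference was 0.13 points. The plot of shares per gene sets the few genes outside the 10-point band against the rest.

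**Figure D1:**
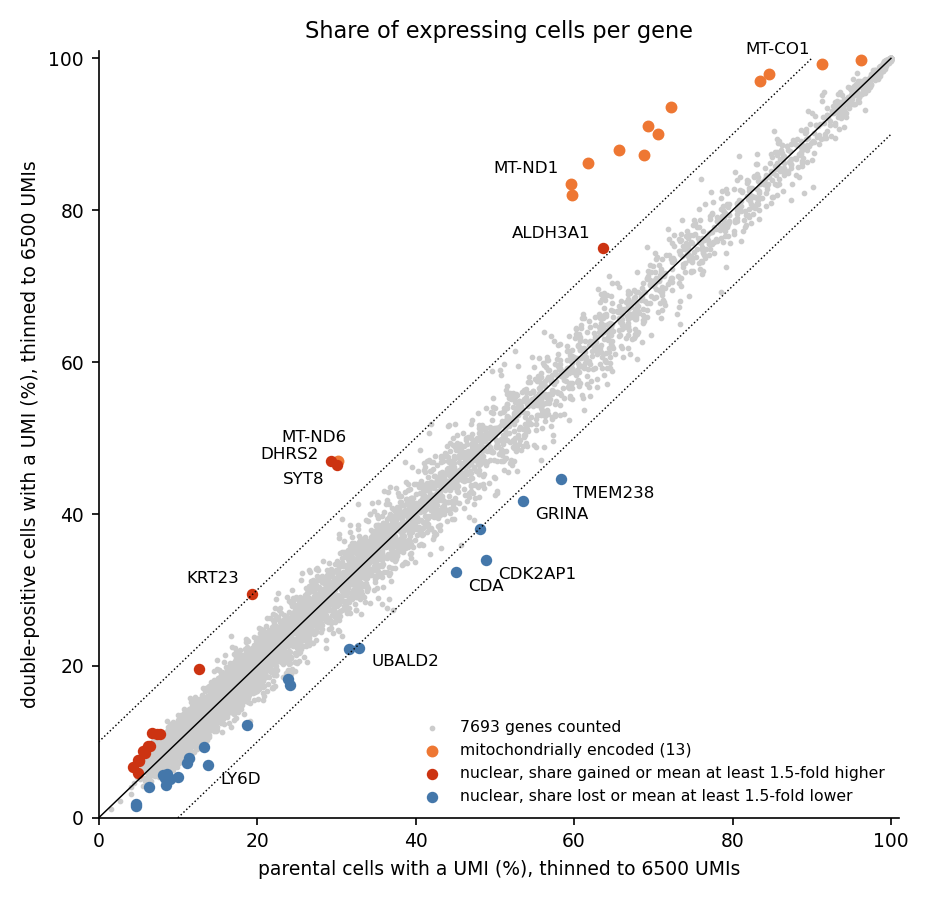
Percentage of cells with at least 1 UMI of each of the 7693 genes counted, in parental cells (x axis) and double-positive cells (y axis), every cell thinned to 6500 UMIs. The solid line marks equal shares and the dotted lines a difference of 10 points; the mitochondrially encoded transcripts lie above the solid line, as do DHRS2, SYT8, ALDH3A1 and KRT23, while CDK2AP1, TMEM238, CDA, GRINA and UBALD2 lie below the band.

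All 13 mitochondrially encoded transcripts were higher in double-positive cells, with log2 ratios from 0.73 (MT-ND3, a complex I subunit) to 1.05 (MT-ND4L, also of complex I) and a median of 0.96, against 0.01 over all genes counted. The 13 together gave a mean of 78.6 UMIs per thinned parental cell and 148 per double-positive cell, with medians of 61 and 134.5. Single-positive cells had a mean of 107 and a median of 86.

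The abundant transcripts were in nearly every cell of both libraries and differed by level. MT-CO2, a cytochrome c oxidase subunit, was found in 96.2% of parental and 99.7% of double-positive cells, at 30.7 against 53.9 UMIs per expressing cell. MT-CO1, the catalytic subunit of the same complex, was found in 91.3% and 99.2%, at 20.0 against 34.7 UMIs. MT-CYB of complex III was found in 84.6% and 98.0%, at 8.77 against 14.8 UMIs. For these 3 the level part of the log2 ratio was 0.76 to 0.81. The scarcer transcripts differed in both parts. MT-ND5 was found in 61.8% of parental and 86.2% of double-positive cells, at 3.07 against 4.35 UMIs. MT-ND6, which the light strand encodes, was found in 30.2% and 47.0%, at 1.68 against 1.93 UMIs, a share part of 0.64 and a level part of 0.20. MT-ATP8 overlaps MT-ATP6, and MT-ND4L overlaps MT-ND4, so reads of each pair may have been divided between them.

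The make-up of the mitochondrial transcripts differed little while their sum differed. MT-CO2 was 37.6% of mitochondrially encoded UMIs in parental and 36.2% in double-positive cells. MT-CO1 was 23.2% in both, and MT-CYB 9.43% and 9.81%. The sum was 1.21% of thinned UMIs in parental cells, 1.65% in single-positive cells and 2.28% in the double-positive ones.

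The libraries differed in how many cells had a very low mitochondrial share. The median share per cell before thinning was 0.947% in parental, 1.30% in the single-positive library and 2.08% in double-positive cells. Cells under 0.5% made up 31.8% of the parental library (767 cells, interval 30 to 33.7%) and 6.19% of the double-positive library (120 cells, 5.15 to 7.35%). Cells of 2% or more made up 20.5% and 52.8%. At 6500 UMIs, 61 parental cells (2.53%) and 3 double-positive cells (0.155%) held no mitochondrially encoded UMI, while 16.6% and 34.6% held all 13 transcripts. The single-positive library lay between the others by these measures, with 21.8% of cells under 0.5% and 29.4% holding all 13. The 5th percentile of the share was 0.0437% in parental and 0.456% in double-positive cells, and the 95th percentile was 3.22% and 4.59%.

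**Figure D2:**
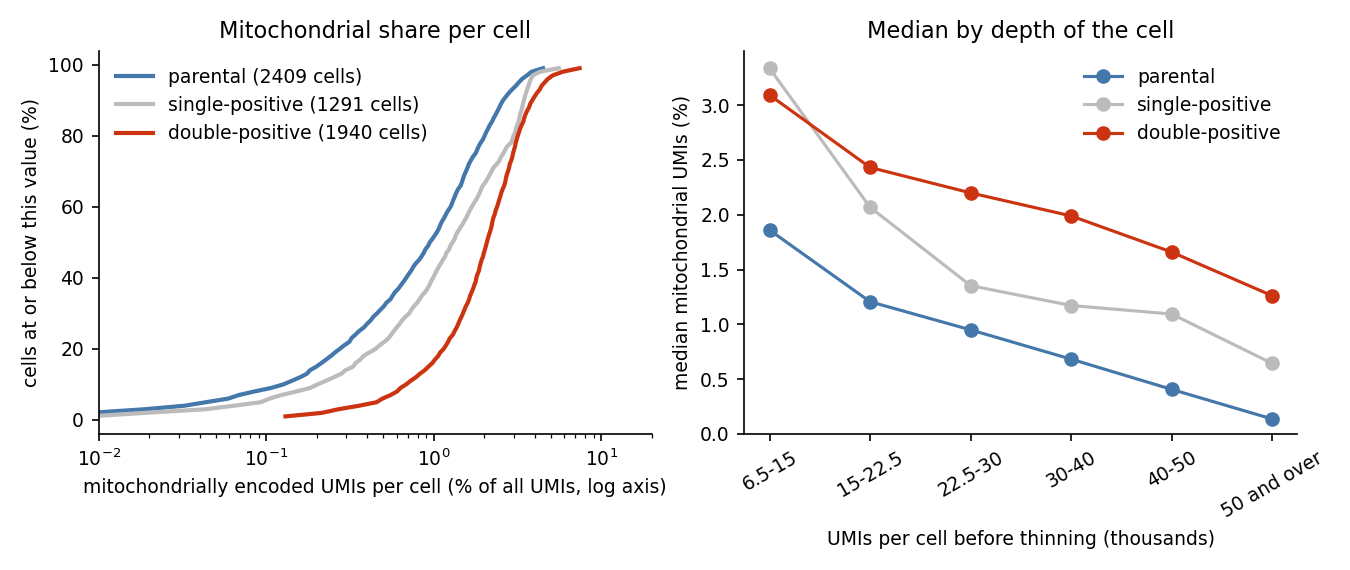
Left, cumulative percentage of cells (y axis) at or below each mitochondrial share of UMIs (x axis, percent, log axis) in the 3 libraries, drawn from the 1st to the 99th percentile. Right, median mitochondrial share (percent) by the cell's UMI number before thinning; it falls with depth from 1.86% to 0.135% in parental and from 3.09% to 1.26% in double-positive cells.

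The mitochondrial share was lower in deeper cells of both libraries. Its median went from 1.86% in parental cells of 6500 to 15000 UMIs to 0.135% in those of 50000 or more, and from 3.09% to 1.26% in double-positive cells. The median log2 ratio of the 13 transcripts went from 0.96 in the shallowest band through 1.02, 1.16, 1.34 and 1.66 to 2.94 in the deepest, where 156 parental and 170 double-positive cells remained. By phase it was 1.04 in G1, 0.92 in S and 0.87 in G2/M. Without the cells under 0.5%, which took out 767 parental and 120 double-positive cells, the median log2 ratio was 0.57 and 4 of the 13 transcripts stayed past 1.5-fold, the 13 ranging from 0.38 to 0.65. This subset was cut on the same measure, so it describes where the gap lies. What the cells with few mitochondrial UMIs are was not tested.

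Nuclear genes of the same organelle showed no such difference. Among all 7693 genes counted, 4129 were above a ratio of 1. Of 47 nuclear-encoded respiratory chain subunits counted, none passed 1.5-fold, 16 were above and 31 below a ratio of 1, and the median log2 ratio was -0.02, or 0.01 with mitochondrial UMIs removed first. Their median share was 85.8% in parental and 83.4% in double-positive cells. COX6C of complex IV had a log2 ratio of -0.18 and CYC1, cytochrome c1 of complex III, -0.15. Of 19 genes of mitochondrial transcription and maintenance counted, none passed 1.5-fold, and the median was -0.00. POLG, the mitochondrial DNA polymerase, had a log2 ratio of 0.25 with an interval of -0.04 to 0.54, and TFB2M, a mitochondrial transcription factor, -0.20.

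Of the 17 higher nuclear genes, 5 reached 0.2 UMIs per cell in either library. KRT23, SYT8, DHRS2 and ADGRF1 differed mainly in share and ALDH3A1 mainly in level. DHRS2 and ALDH3A1 are enzymes that act on carbonyl compounds. DHRS2, a short-chain dehydrogenase, was found in 47.0% of double-positive cells (interval 44.8 to 49.3%) and 29.3% of parental cells (27.5 to 31.2%), with 33.3% in single-positive cells. Its level differed little, 6.33 against 6.04 UMIs, so that 0.68 of its log2 ratio of 0.75 was the share part. DHRS2 was spread unevenly over cells: 70.7% of parental and 53% of double-positive cells had no UMI, while 5.02% and 8.87% had 10 or more. The highest cell had 86 UMIs in the parental library and 120 in the double-positive library. DHRS2 was found in more G2/M cells than S cells in both libraries, 37.7% against 18.2% in parental and 53% against 40.7% in double-positive cells. The double-positive share was the larger one in every phase and in each of the 6 depth bands, for a gene chosen by its higher ratio in these same cells. In G1 cells alone the log2 ratio of DHRS2 was 0.57, under the 1.5-fold line.

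ALDH3A1, an aldehyde dehydrogenase of aromatic and fatty aldehydes, differed in level more than in share. It was found in 63.6% of parental and 75% of double-positive cells at 3.35 against 4.52 UMIs, a share part of 0.24 and a level part of 0.43. Cells with 10 or more ALDH3A1 UMIs made up 3.24% of parental and 7.63% of double-positive cells. In single-positive cells its share, 72.7%, was close to that of double-positive cells. The dehydrogenase and reductase list had a median log2 ratio of -0.02 over the 17 members counted. Of these, 2 passed 1.5-fold higher, both named above, against 0.39% of all genes counted. DHRS3, a retinal reductase, had a log2 ratio of 0.38.

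SYT8, a synaptotagmin of membrane trafficking, was found in 30.1% of parental, 29.7% of single-positive and 46.4% of the double-positive cells, at 1.42, 1.41 and 1.61 UMIs. Its log2 ratio to parental was 0.81, and 0.59, just past the 1.5-fold line, in the second draw. KRT23, a type I keratin, was found in 19.3%, 18.0% and 29.5% of the parental, single-positive and double-positive cells, at 1.85, 1.74 and 2.19 UMIs, with a log2 ratio of 0.85. For both genes the single-positive values lay near the parental ones. The KRT23 share was highest in G1, at 25.7% of parental and 34.0% of double-positive cells. ADGRF1, an adhesion G protein-coupled receptor, was found in 12.6% and 19.5% of parental and double-positive cells at a level of 1.31 in both, with a log2 ratio of 0.64. The second draw put it at 0.51, so that its place past the 1.5-fold line depended on the draw.

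The next genes in order of ratio, among those of at least 0.2 UMIs per cell, lay under the 1.5-fold line in the mean. PLAT, the tissue plasminogen activator, was found in 16.6% and 24.0% of parental and double-positive cells and had a log2 ratio of 0.56. IL2RG, the common cytokine receptor gamma chain, had 0.50, the peptidylarginine deiminase PADI3 0.49 and FAM46A 0.48, each mainly by share. SPRR2D and SPRR2E, precursors of the cornified envelope, had 0.54 and 0.47 by level: SPRR2E was found in 4.07% and 4.02% of cells, at 4.30 and 6.03 UMIs. The SPRR2 genes are near copies of each other, so their separate values are uncertain. BIK, a BH3-only promoter of apoptosis, was found in 42.0% and 51.9% of cells, and the death receptor TNFRSF21 in 49.7% and 58.9%.

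NET1, an exchange factor for RhoA, had a log2 ratio of 0.50, the highest among 33 genes counted of the entosis and actomyosin list. It was found in 52.6% of parental, 58.9% of single-positive and 61.5% of the double-positive cells, at 1.58, 1.71 and 1.91 UMIs. None of the 33 passed 1.5-fold, 22 were above a ratio of 1, as were 4129 of all 7693 genes counted, and the median was 0.09 against 0.01 over all genes. ROCK1, the kinase that RhoA drives, had 0.23 with an interval of 0.06 to 0.39. RHOA itself had -0.02, with a share of 93.9% in parental and 93.6% in double-positive cells. EZR, the membrane-actin linker ezrin, had 0.18, and MSN, its relative moesin, -0.08.

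No gene of the adhesion lists passed 1.5-fold. For reference, 4129 of all 7693 genes counted were above a ratio of 1. Of 22 integrin, laminin and hemidesmosome genes counted, 19 were above a ratio of 1, with a median log2 ratio of 0.12. ITGB4, the hemidesmosome integrin, was found in 41.6% and 50.7% of parental and double-positive cells and had 0.34. COL17A1, its transmembrane collagen partner, had 0.26. Of 13 cadherin and catenin genes counted, 12 were above a ratio of 1, with a median of 0.08. Across all genes the ratio was larger for longer transcripts, and the part of transcript length in these counts was not tested. CDH1, E-cadherin, was found in 35.7% and 39.7% of cells and had 0.30, CDH3, P-cadherin, had 0.31, and CTNNA1, alpha-catenin, had 0.02. The lysosome list (29 counted, median -0.06) and the autophagy list (26 counted, median 0.00) had no member past 1.5-fold.

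**Figure D3:**
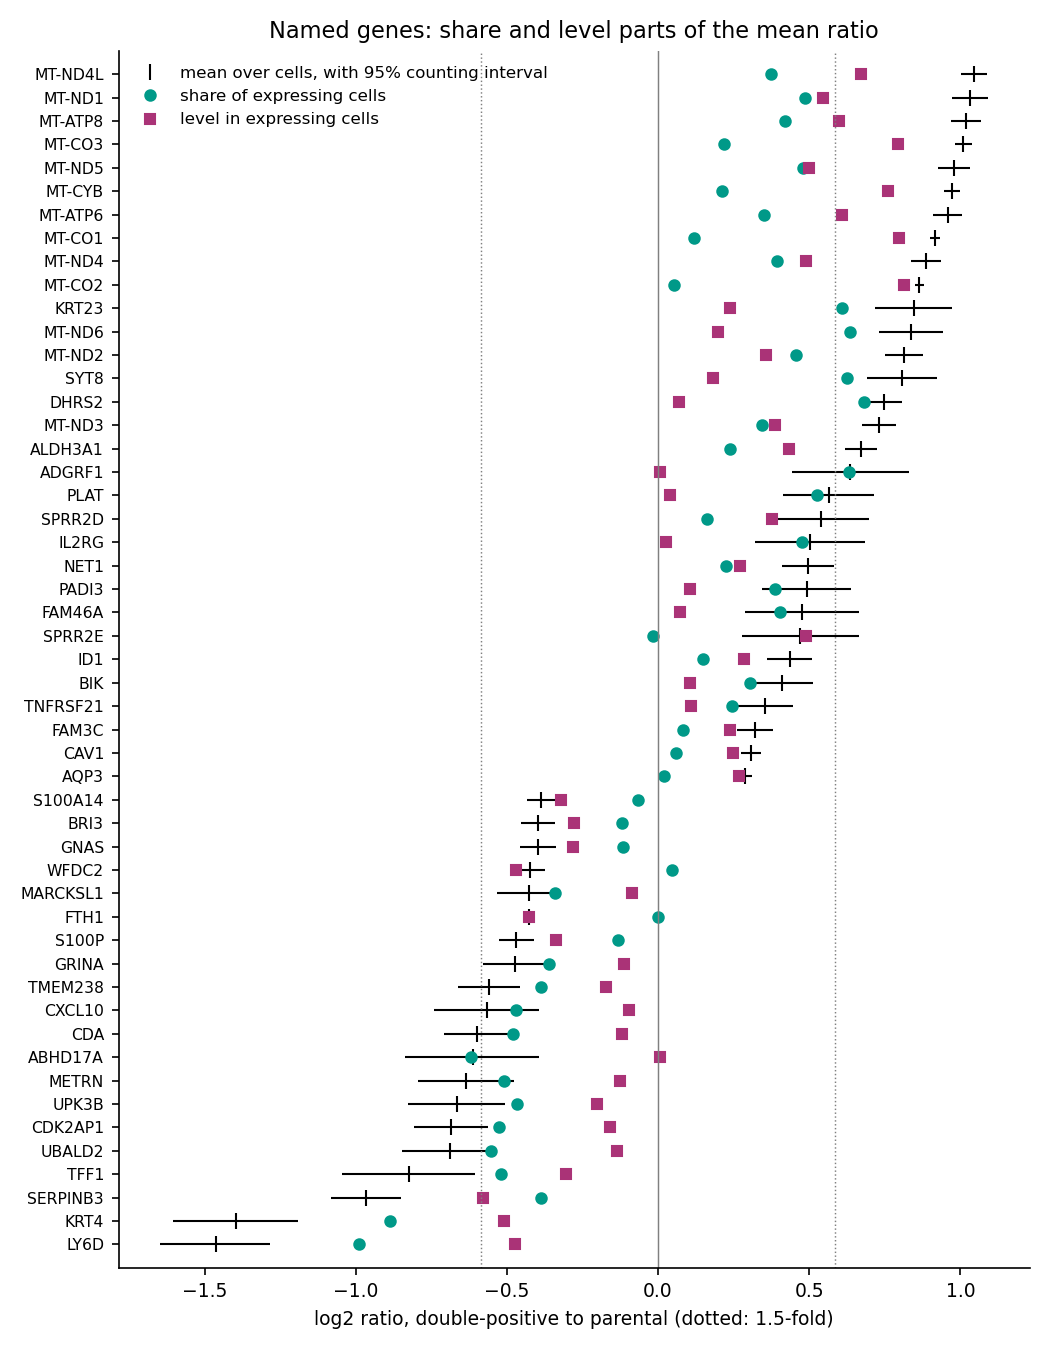
log2 ratio of double-positive to parental cells for named genes (y axis): the mean over cells (vertical tick, line for the 95% counting interval), its share part (circle) and its level part (square), which add up to the mean. DHRS2, ADGRF1 and PLAT lie at their share part, FTH1 and WFDC2 at their level part, and the abundant mitochondrially encoded transcripts mostly at the level part.

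The largest reductions among genes of at least 0.2 UMIs per cell were those of LY6D, KRT4, SERPINB3 and TFF1, each found in at most 23.9% of cells. Other squamous genes went both ways: SPRR2D and SPRR2E had positive ratios, while the keratin KRT6B had a log2 ratio of -0.52. LY6D, a surface protein of stratified epithelium, was found in 13.8% of parental cells (interval 12.5 to 15.3%) and 6.96% of double-positive cells (5.87 to 8.18%), at 3.30 against 2.38 UMIs, a log2 ratio of -1.46. KRT4, a keratin of non-cornified stratified epithelium, was found in 10.0% and 5.41% at 3.43 against 2.41 UMIs, a log2 ratio of -1.39. SERPINB3, the squamous cell carcinoma antigen, was found in 23.9% and 18.2%, at 3.62 against 2.43 UMIs. The log2 ratio of SERPINB3 was -0.96, of which the level part, -0.58, was the larger. By phase its ratio was -1.23 in G1, -0.79 in S and -0.35 in G2/M. SERPINB4 is a near copy of SERPINB3, and how reads were divided between them is not given. TFF1, a trefoil peptide of mucous epithelium, was found in 8.14% and 5.67% and had -0.82. The TFF1 share was lower in double-positive cells in G1 and G2/M, but higher in S, 5.54% against 4.19%. Cells rich in LY6D were fewer as well: 2.70% of parental and 0.67% of double-positive cells had 5 or more LY6D UMIs.

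These 4 genes tended to occur in the same cells. Of parental cells with LY6D, 65.5% had SERPINB3, against 17.2% of those without; in double-positive cells the values were 53.3% and 15.6%. KRT4 and TFF1 were found together 4.33 times as often in parental and 6.72 times as often in double-positive cells as the product of their shares gives. Cells with 2 or more of the 4 genes made up 15.8% of parental cells (380 cells, interval 14.3 to 17.3%) and 8.71% of double-positive cells (169 cells, 7.49 to 10.1%). Cells with exactly 1 made up 15.9% and 15.8%. This group of 4 was put together after its values were seen, which set the direction of its difference. Among the genes that were higher or next to them, cells with 3 or more of KRT23, SYT8, DHRS2, ALDH3A1, ADGRF1 and PLAT made up 23.2% of parental and 45.2% of double-positive cells. These 6 genes were picked by their higher ratios in the same cells, which set the direction of this count.

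Cells with 2 or more of the 4 genes were more frequent among deep cells. In parental cells they made up 13.8% of the band of 6500 to 15000 UMIs and 28.8% of the band of 50000 or more, and in double-positive cells 6.34% and 17.1%. The double-positive value was the lower one in each of the 6 bands, for genes chosen by their lower ratios in these same cells. In the single-positive library these cells made up 18.7%, and 46.6% of its 251 cells of 6500 to 15000 UMIs. The single-positive shares of LY6D and SERPINB3, 18.0% and 25.1%, were thus not on the double-positive side of the parental values.

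**Figure D4:**
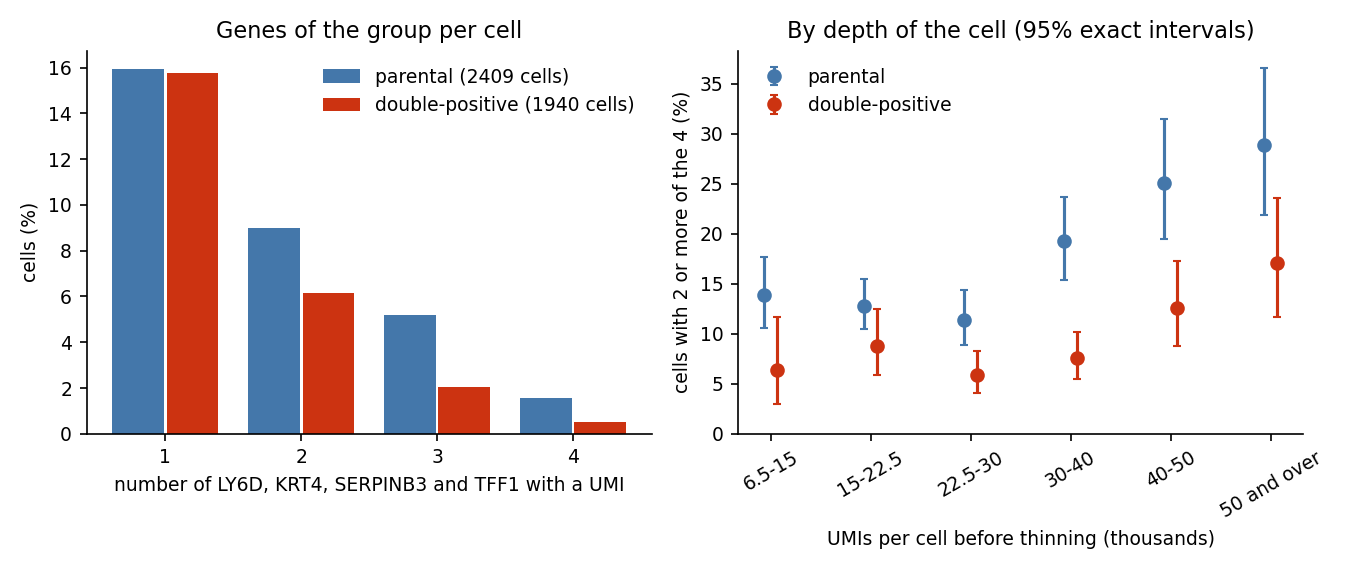
Left, percentage of cells (y axis) with 1, 2, 3 or 4 of the genes LY6D, KRT4, SERPINB3 and TFF1 detected at 6500 UMIs; cells with none are not drawn. Right, percentage with 2 or more of the 4 by UMI number before thinning, with exact 95% binomial intervals; the double-positive value is below the parental one in each of the 6 bands.

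The medians of the broader lists did not follow these 4 genes. Over all 7693 genes counted, 4129 were above a ratio of 1, 0.39% were past 1.5-fold higher and 0.273% past it lower. Of 19 squamous and cornified envelope genes counted, 9 were above and 10 below a ratio of 1, 2 were past 1.5-fold lower (LY6D and SERPINB3), none past it higher, and the median log2 ratio was -0.05, or 0.07 with a floor of 50 CPM and 0.06 with mitochondrial UMIs removed first. Of 13 keratins counted, KRT23 was past 1.5-fold higher and KRT4 lower, and the median was -0.10. Only 6 of 26 classical subtype genes of pancreatic cancer were counted, with a median of -0.18; AGR2, a disulfide isomerase of mucous cells, had -0.50 and CEACAM6, an adhesion protein, -0.38. Of 18 basal-like subtype genes counted, LY6D and SERPINB3 were again the 2 past 1.5-fold lower, and the median was -0.04.

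A second set of lower genes was widely detected and lost mainly share. CDK2AP1, which binds and restrains the cell cycle kinase CDK2, was found in 48.9% of parental cells (interval 46.9 to 50.9%) and 34.0% of double-positive cells (31.9 to 36.1%), at 1.38 against 1.24 UMIs, with a log2 ratio of -0.68. Its single-positive share was 37.9%. TMEM238 was found in 58.3%, 40.9% and 44.6% of the parental, single-positive and double-positive cells. CDA, the cytidine deaminase that inactivates gemcitabine, was found in 45.1%, 41.1% and 32.3%, and UBALD2 in 32.9%, 27.9% and 22.4%. For CDK2AP1 and TMEM238 the single-positive library was thus nearer to the double-positive one, and for CDA nearer to the parental one. The share of CDK2AP1 was lower in double-positive cells in all 3 phases and all 6 depth bands, for a gene chosen by its lower ratio in these same cells. CDK2AP1 and LY6D were found together 1.08 times as often as the product of their shares in parental cells, near the value of 1 that independent genes give.

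GRINA, a glutamate receptor-associated membrane protein, was found in 53.5% and 41.8% of parental and double-positive cells, and MARCKSL1, an actin-binding protein kinase C substrate, in 48.1% and 38%. With TMEM238, CDK2AP1, CDA and UBALD2 these are the 6 share losses of at least 10 points. The uroplakin UPK3B had a log2 ratio of -0.67, METRN, a secreted neurotrophic factor, -0.63 and the depalmitoylase ABHD17A -0.61. ABHD17A had -0.40 in the second random draw and CDA, at -0.60, had -0.58, so both stood at the line. CXCL10, an interferon-induced chemokine, was found in 6.64% and 4.79% of cells and had -0.57.

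Some abundant genes differed wholly or mainly by level. FTH1, the ferritin heavy chain that stores iron, was found in 100% of cells of both libraries and gave 58.7 UMIs per parental, 46.4 per single-positive and 43.6 per double-positive cell, a log2 ratio of -0.43. WFDC2, the secreted protein HE4, was found in 64.7% and 66.9% of parental and double-positive cells at 5.98 against 4.31 UMIs. S100P, a calcium-binding protein, was found in 63.8% and 58.2% of cells at 4.19 against 3.32 UMIs, a share part of -0.13 and a level part of -0.34. Its relative S100A14 was found in 88.4% and 84.4%, at 4.64 against 3.71 UMIs. In the other direction, the water and glycerol channel AQP3 had a level of 12.8 UMIs in parental and 15.5 in double-positive cells, and CAV1, the coat protein of caveolae, 7.12 and 8.46. None of these levels passed 1.5-fold.

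Of the genes past 1.5-fold, 23 were too scarce for the naming rule, under 0.2 UMIs per cell in both libraries. The 12 higher ones were PDZK1IP1, TARS2, NR4A2, FN1, C6orf132, IL33, CNTRL, DDX11, MOK, CEMIP, CTD-3252C9.4 and CGB5, with log2 ratios from 0.59 to 0.72 and shares under 12% in both libraries. In the second draw only PDZK1IP1, C6orf132, CEMIP and CGB5 of these 12 were past 1.5-fold, so the other 8, FN1 at 0.56 and NR4A2 at 0.25 among them, depended on the draw. The 11 lower ones were S100A4, MAPRE3, RAMP1, PRSS1, DEFB1, LYNX1, VEGFB, TMEM120B, CYP1A1, YPEL3 and RBM38, of which MAPRE3 and TMEM120B were not past it in the second draw. PRSS1, the trypsinogen of acinar cells, was found in 4.77% of parental and 1.55% of double-positive cells, at 4.02 against 1.60 UMIs, and had the lowest log2 ratio of all genes counted, -2.95. The single-positive share of PRSS1 was 1.16%. PRSS2, a near copy of PRSS1, was found in 2.82% and 1.19% of parental and double-positive cells, and 6 other acinar markers, among them CPA1, AMY2A and PNLIP, were at 0 in both libraries. LYNX1, a modulator of nicotinic receptors, was found in 4.69% and 1.86% of cells and had -1.80, and CYP1A1, a monooxygenase induced through the aryl hydrocarbon receptor, in 6.35% and 4.12% and had -1.17, or -0.91 in the second draw.

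Pathway lists otherwise kept within 1.5-fold. Over all 7693 genes counted, 4129 were above a ratio of 1, 0.39% were past 1.5-fold higher and 0.273% past it lower. Of 24 cholesterol synthesis genes counted, 20 were below a ratio of 1, with a median log2 ratio of -0.10; the sterol oxidase MSMO1 had -0.38 and the squalene synthase FDFT1 -0.34. Of 27 NRF2 targets counted, 23 were below 1, with a median of -0.13. Of 48 interferon response genes, 32 were below 1 (median -0.07), and of 19 heat shock chaperones 15 were (median -0.06). Of 33 S phase genes 23 were above 1 (median 0.08), and of 49 G2 and mitosis genes 34 were (median 0.04, but -0.07 with the depth bands weighted alike and -0.02 in G1 cells). The helicase subunit MCM2 had 0.31 and the proliferation marker MKI67 0.20. The p53 target CDKN1A had -0.03. No member of these lists passed 1.5-fold. Across the epithelial-mesenchymal transition list 19 were counted: FN1, fibronectin, was past 1.5-fold higher at 0.68 but not in the second draw, S100A4 past it lower at -0.70, VIM, vimentin, had -0.21, and the median was 0.06, or -0.05 without the cells under 0.5% mitochondrial UMIs.

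The ratio followed transcript length and base composition across genes. Among 4176 nuclear genes averaging at least 0.2 UMIs per thinned cell over both libraries, Spearman's rank correlation between the log2 ratio and GENCODE transcript length was 0.36, and -0.36 for transcript GC content. These are descriptions across genes, which are not independent replicates. When the genes were cut into 10 equal groups, that with the lowest ratios, all under -0.16, had a median transcript length of 1974 nt and GC of 57.6%. The group with the highest ratios, all above 0.16, had 4327.5 nt and 43.5%. The part of this slope in the medians of the lists was not tested.

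**Figure D5:**
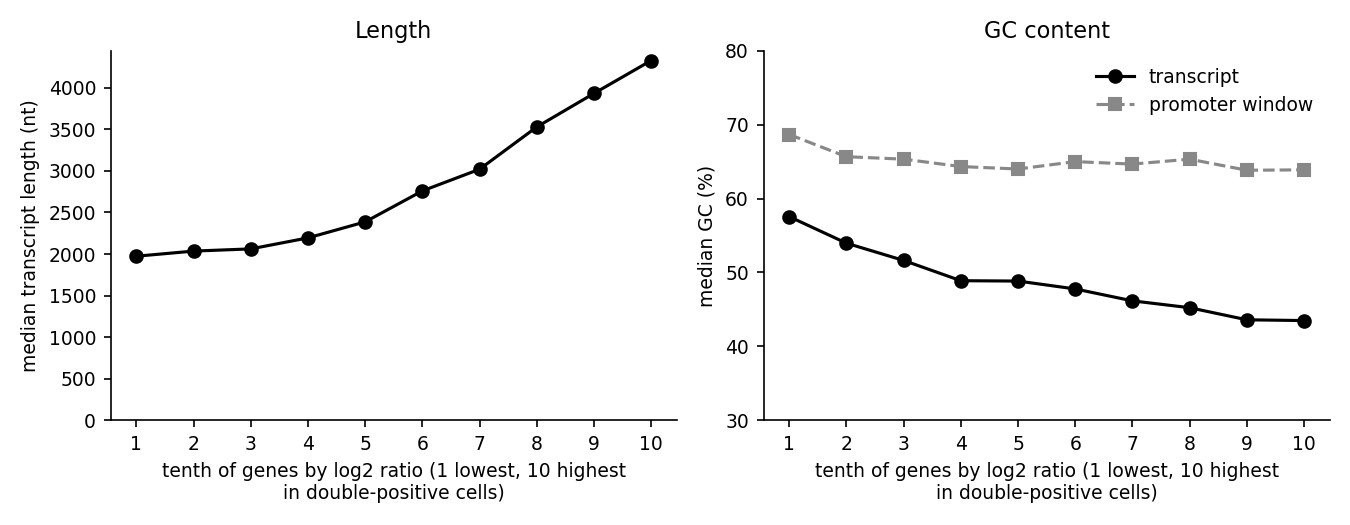
Median transcript length (left, nucleotides) and median GC content (right, percent) of 4176 nuclear genes in 10 equal groups by their log2 ratio of double-positive to parental cells (x axis). Length rises from 1974 to 4327.5 nt and transcript GC falls from 57.6% to 43.5%, while the promoter window's GC falls from 68.7% to 63.9%.

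Promoter composition followed the ratio less. Over 3308 of these genes with a window in the RefSeq promoter table (GRCh38.p14, 250 bases before the start to 50 after), the rank correlation between the log2 ratio and the window's GC content was -0.08. The table held windows for 4 of the 12 highest-ranked and 10 of the 12 lowest-ranked named nuclear genes. The 250 bases before the start are shown for 1 higher and 2 lower genes, chosen after their values were seen so that lower genes of both low and high GC appear. DHRS2, higher, lies on the plus strand, chr14:23629865-23630114, with 43.2% GC. SERPINB3, lower, lies on the minus strand, chr18:63661894-63662143, with 40.8% GC, and METRN, also lower, on the plus strand, chr16:714868-715117, with 78.4% GC. The other lower genes with a window spanned a wide range. CXCL10 stood at 40.8%, KRT4 at 54.8%, ABHD17A at 59.6%, CDA at 60.4% and UPK3B at 67.2%. TMEM238 stood at 68.8% and UBALD2 at 72.0%. CDK2AP1, listed with several starts, stood at 56.8%, 64.8% and 82.8%. Capitals mark TATAAA, held on either strand by 11.5% of all 35116 promoter windows, and GGGCGG or its reverse complement, held by 45.0%; the 2 motifs do not overlap.
DHRS2: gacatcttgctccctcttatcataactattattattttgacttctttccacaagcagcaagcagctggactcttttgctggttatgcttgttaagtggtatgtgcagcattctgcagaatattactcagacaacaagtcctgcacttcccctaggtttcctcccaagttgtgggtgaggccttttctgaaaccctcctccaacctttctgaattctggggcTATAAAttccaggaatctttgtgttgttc
SERPINB3: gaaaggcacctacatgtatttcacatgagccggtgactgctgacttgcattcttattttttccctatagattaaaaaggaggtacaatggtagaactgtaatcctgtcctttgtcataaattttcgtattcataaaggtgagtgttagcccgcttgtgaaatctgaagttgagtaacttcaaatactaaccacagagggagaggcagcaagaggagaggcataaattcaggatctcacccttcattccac
METRN: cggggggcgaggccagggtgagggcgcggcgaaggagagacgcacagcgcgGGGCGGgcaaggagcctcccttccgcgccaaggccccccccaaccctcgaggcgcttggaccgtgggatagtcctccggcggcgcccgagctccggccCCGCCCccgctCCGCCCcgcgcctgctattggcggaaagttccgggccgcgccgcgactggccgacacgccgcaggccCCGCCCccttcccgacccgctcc
The DHRS2 stretch holds the first motif, the METRN stretch the second at several places, and the SERPINB3 stretch neither. A match is a run of letters and not evidence of binding.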

How the data were processed

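Count matrices of 3 droplet libraries were used, in which the authors deposited raw UMI counts per gene and barcode. Per the submitters' processing notes, Cell Ranger 4.0.0 and Seurat 4.0.6 were used with GRCh38; no release of the gene annotation is stated there. Each cell was thinned without replacement to 6500 UMIs in 1 seeded draw (numpy 2.4.6). Phases were scored with scanpy 1.11.5 on thinned cells. No doublets were removed. Free RNA was left in. Coordinates are those of GENCODE 29 by gene ID. Share intervals are Clopper-Pearson intervals and ratio intervals exact conditional binomial intervals at 95%. Genes were named by rule. Among genes of at least 0.2 UMIs per cell, the 12 highest and 12 lowest ratios were taken. The 6 largest share differences each way were taken from the same genes. For the 6 largest level differences each way, only those found in at least 50% of cells of both libraries were eligible. The 13 mitochondrial transcripts and up to 3 members of each list were added. A panel of 12 genes was added too: CDH1, CTNNA1, RHOA, ROCK1, ROCK2, MYL9, EZR, MSN, CD44, CDKN1A, MKI67 and VIM. The comparison, the gene lists and the thresholds were chosen with earlier results of these data known. The script was tested on simulated data. The 16 alternatives tried are in the closing section.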

Additional observations from a re-analysis of the deposited data

How the results depend on the processing

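No paired analysis was possible because each group had 1 library. The direction of the 13 mitochondrially encoded transcripts was higher in every setting tried, and the 30 named genes past 1.5-fold kept their sign in all of theirs; 12 of them stayed past 1.5-fold in all, among them KRT23, SYT8, ALDH3A1, LY6D, KRT4 and SERPINB3. Of 33 other list medians, 17 kept their sign.

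The following counts moved by more than 1.5 times. The cause was not tested. Thinned to 3000 UMIs, 48 genes were 1.5-fold higher in the mean and 40 lower, 0 lost 10 points of share and 4 had a higher level. Thinned to 10000 UMIs, 4 genes had a lower level, and 2 did in a second draw at the main depth. Without thinning, 18 genes were higher in summed CPM, 346 gained and 2 lost 10 points of share, and 19 had a higher and 2 a lower level. A floor of 1 CPM in place of 10 gave 299 higher and 289 lower genes, and one of 50 CPM gave 17 and 5. In G1 cells alone, 57 genes were higher and 66 lower, with 10 share losses and 2 lower levels. With mitochondrial UMIs removed first, 14 genes were higher, 4 gained share and 0 had a higher level. Without cells under 0.5% mitochondrial UMIs, 13 were higher, 5 gained share, 2 had a higher and 2 a lower level. Without cells of 50000 UMIs or more, 1 gene had a lower level.

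The median log2 ratio of the mitochondrially encoded transcripts, 0.96, was 1.03 at 10000 UMIs, 1.15 without thinning, 1.02 in cells of at least 10000 UMIs, 1.18 with the depth bands weighted alike, 1.04 in G1 and 0.57 without the cells under 0.5%. Median-of-ratios scaling and subtraction of 5% free RNA give no share or level, and removal of mitochondrial UMIs gives no mitochondrial median. Depth limits the shares: a gene of 1 or fewer UMIs per 6500 is missed in many cells that hold it.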

Other observations

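Below the limit of 6500 UMIs, 90 barcodes of at least 2000 UMIs stood in the parental library, 57 in the single-positive and 87 in the double-positive one. Their median mitochondrial share was 4.23%, 33.9% and 14.1%, and 13, 35 and 39 of them were over 20%. No barcode of at least 6500 UMIs failed the limits on genes or mitochondrial share. Barcodes of at most 100 UMIs, taken as free RNA, held DHRS2 at 295 CPM in the parental and 403 in the double-positive library, beside 273 and 458 in thinned cells. LY6D stood at 41.6 and 36.7 CPM in free RNA and at 70.2 and 25.5 in cells.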
